A study of Mus musculus with 10 samples.

Results

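Transcripts of autophagy and of the lysosome were followed in gastrocnemius (GTN) muscle of mice that lack mitochondrial thioredoxin reductase, *Txnrd2*, in their myofibres. The set holds 36 genes chosen by symbol: cargo receptors, the core autophagy machinery, its transcription factors, mitophagy genes and parts of the lysosome. A member was measured if the symbol had a probe set in the platform annotation, and the brightest probe set over all arrays stood for the gene. This gave 33 measured members of 19505 measured genes, while *Optn*, *Ctsd* and *Pink1* matched no probe set of that annotation and were not analysed here. Each measured member had 1 probe set.

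Ctrl mice carried the floxed *Txnrd2* alleles (*Txnrd2* fl/fl) and no Cre, and mTKO mice carried the same floxed alleles with *ACTA1*-cre. This Cre is driven by the skeletal muscle actin promoter, works in fast and slow myofibres and is not active in satellite cells, so other cells of the whole muscle keep the gene. All mice were males of 60 days on a C57BL/6 N background and standard chow, with 5 ctrl and 5 mTKO mice, 1 mouse per Clariom S array and none pooled. Mice with Cre and without floxed alleles were not on these arrays. Values are log2 signals, so that a difference of 1 is a doubling of signal, and each difference is given as mTKO minus ctrl.

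The targeted gene was lower in the arrays labelled mTKO. *Txnrd2* had a log2 signal of 8.47 to 9.08 in ctrl and of 7.51 to 7.96 in mTKO, without overlap, and a difference of -1.00 (standard error 0.16, limma's adjusted p = 0.118). Which exons Cre removes, and whether the probe set reads them, is not known here, so the size of this difference does not measure the deletion. The 12 myofibre markers, such as those of actin and myosin, had a mean log2 signal of 18.34 to 18.43 in ctrl and 18.31 to 18.47 in mTKO arrays. Among them, the myosin gene *Myh7* varied more in mTKO, from 13.67 in replicate 2 to 15.77 in replicate 4, against 14.33 to 14.92 in ctrl. The median signal of an array lay between 6.06 and 6.14. Over all 22206 probe sets, limma called 1 past an adjusted p of 0.05, *Mthfd2*, a folate cycle gene with a difference of 3.83, and this call was lost without any 1 of the ctrl arrays and without replicate 1 or 3 of the mTKO arrays. In such bulk samples, fewer cells of a type and less RNA per cell cannot be told apart.

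Autophagy encloses cytoplasm in a double membrane and delivers it to the lysosome, where acid hydrolases break it down. It starts with the ULK1 kinase complex and a lipid kinase complex that marks the growing membrane, onto which ubiquitin-like conjugation fixes the ATG8 proteins (LC3 and GABARAP), and cargo receptors tie selected cargo to them. Skeletal muscle depends on basal autophagy to clear damaged mitochondria and protein aggregates, and raises it in fasting and disuse through FOXO and TFEB/TFE3 transcription factors.

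None of the members was called higher or lower in mTKO muscle, and their differences were small. Of 33 measured members, 0 passed an adjusted p of 0.05 in limma (adjusted p from 0.783 to 0.996), against 1 of all probe sets (0.00450%). At an unadjusted p under 0.05 limma gave 1 higher member, *Sqstm1*, where 3.10% of all probe sets were higher, and 0 lower members, where 3.26% were lower. The methods' t-test gave the same count of 1 at its unadjusted threshold and 0 with its fold change above 2 or after Benjamini-Hochberg adjustment. In 0 members did the 5 mTKO arrays lie wholly above or wholly below the 5 ctrl arrays, which occurred in 1.02% of all probe sets. Differences were positive in 21 members and negative in 12, where 49.9% of all probe sets were positive, and the median over members was 0.04 beside -0.00 over all probe sets.

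The size of change that the arrays leave room for can be read from the intervals. Each of the 33 members had a 95% interval from limma inside -1 to 1, that is, within a doubling or halving of signal, with bounds from -0.64 to 0.69. This was also the case for 21499 of 22206 probe sets. An interval inside -0.5 to 0.5 was found for 19 members and for 4938 of the 11104 probe sets above the median signal. The within-group SD of the members had a median of 0.22 and ran from 0.10 to 0.40. All members but *Atg13* and *Atg7* had a mean signal above the median of all probe sets.

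**Figure D1:**
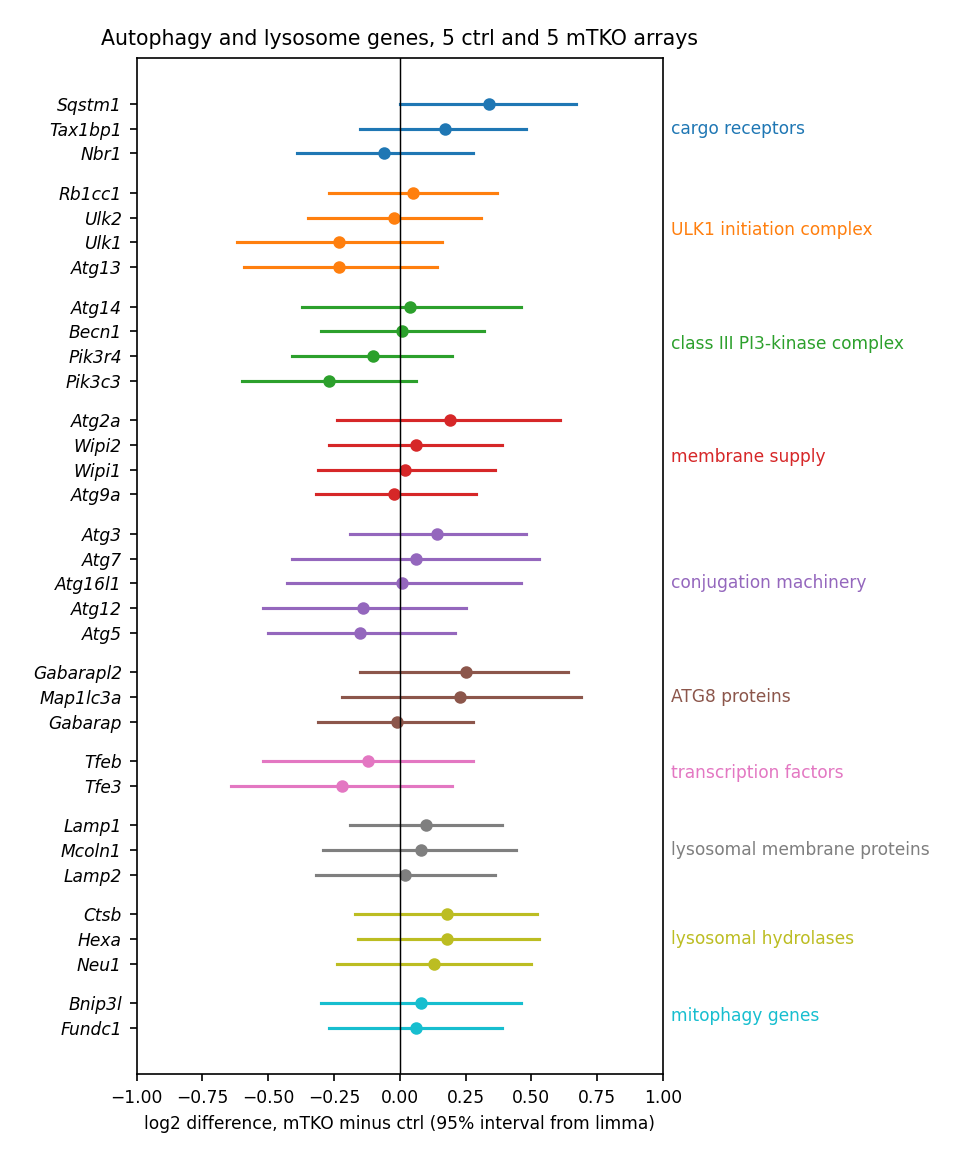
Log2 difference (mTKO minus ctrl, points) with its 95% interval from limma (lines) for the 33 measured members, 5 ctrl and 5 mTKO arrays, grouped and coloured by role. *Sqstm1* has the highest difference (0.34) and *Pik3c3* the lowest (-0.27), and every line lies between -0.64 and 0.69.

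Among the cargo receptors, *Sqstm1* had the highest difference of all members. *Sqstm1* encodes p62, which binds ubiquitinated cargo and LC3, is itself degraded by autophagy and also binds KEAP1, the inhibitor of the oxidative stress factor NRF2. The log2 signals of *Sqstm1* were 14.21, 14.27, 14.07, 14.09 and 13.87 in ctrl and 14.44, 14.67, 14.11, 14.65 and 14.32 in mTKO, replicates 1 to 5 each. Thus 4 of 5 mTKO values exceeded the whole ctrl range, and mTKO replicate 3 lay inside the ctrl range. The means were 14.10 ± 0.15 and 14.44 ± 0.23 (SD, n = 5 each), a difference of 0.34 (standard error 0.16, 95% interval 0.00 to 0.67) or a 1.26-fold signal. Limma gave an unadjusted p of 0.049 and an adjusted p of 0.783, and the two-sided exact permutation test gave p = 0.0317, where 5 arrays against 5 can reach 0.00794. The exact p-values given for single genes are not adjusted for the 15 members or the 142 wider genes. When single arrays were left out, the unadjusted p from limma for *Sqstm1* ran from 0.0201, without mTKO replicate 3, to 0.117, without ctrl replicate 5.

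*Tax1bp1*, a ubiquitin-binding receptor for protein aggregates, had log2 signals of 12.87, 12.92, 12.63, 12.63 and 13.09 in ctrl and 12.96, 12.88, 12.98, 13.16 and 13.00 in mTKO. The groups overlapped, and the lowest arrays were ctrl replicates 3 and 4. Its means of 12.83 ± 0.20 and 13.00 ± 0.10 (SD, n = 5 each) differed by 0.17 (standard error 0.15, 95% interval -0.15 to 0.48, limma's adjusted p = 0.889, exact permutation p = 0.159). *Nbr1*, a receptor close to p62 in its domains, had 11.23, 11.64, 11.82, 11.74 and 11.91 in ctrl and 11.66, 11.56, 11.43, 11.76 and 11.65 in mTKO. All mTKO values of *Nbr1* lay within the ctrl range, which ctrl replicate 1 extended downwards. The difference was -0.06 (standard error 0.16, 95% interval -0.39 to 0.28, limma's adjusted p = 0.977, exact permutation p = 0.698).

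The ULK1 complex phosphorylates the proteins that start the autophagosome and is itself held in check by mTORC1. Of its 4 members, 3 had a negative difference, with a median of -0.12. *Ulk1*, the kinase, had log2 signals of 9.37, 8.79, 9.13, 9.38 and 8.69 in ctrl and 9.10, 8.50, 8.66, 8.93 and 9.02 in mTKO. The ranges overlapped, with the lowest values in mTKO replicates 2 and 3. Mean signals were 9.07 ± 0.32 and 8.84 ± 0.25 (SD, n = 5 each), and the difference of -0.23 had a standard error of 0.18 and a 95% interval of -0.62 to 0.16 (limma's adjusted p = 0.876, exact permutation p = 0.238). *Atg13*, an adaptor subunit, was read at low signal, with 5.72, 5.59, 5.91, 5.86 and 5.77 in ctrl and 5.69, 5.97, 5.20, 5.23 and 5.63 in mTKO. Of the 10 arrays, mTKO replicates 3 and 4 were lowest and mTKO replicate 2 was highest. *Atg13* thus differed by -0.23 (standard error 0.17, 95% interval -0.59 to 0.14, limma's adjusted p = 0.871, exact permutation p = 0.222). *Ulk2*, the related kinase, had a difference of -0.02 (95% interval -0.35 to 0.31). *Rb1cc1*, which encodes the scaffold FIP200, had 0.05 (95% interval -0.27 to 0.37).

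The class III PI3-kinase complex makes the lipid that recruits later factors to the membrane. *Pik3c3*, its catalytic subunit VPS34, had the most negative difference of all members. The log2 signals of *Pik3c3* were 8.14, 8.31, 7.90, 8.31 and 7.85 in ctrl and 7.67, 7.97, 7.80, 7.69 and 8.03 in mTKO. All 5 mTKO arrays lay below the ctrl mean, and 3 of them, replicates 1, 3 and 4, lay below every ctrl array. Means of 8.10 ± 0.22 and 7.83 ± 0.16 (SD, n = 5 each) gave a difference of -0.27 (standard error 0.16, 95% interval -0.60 to 0.06), or 0.829-fold, with an adjusted p of 0.840 from limma and p = 0.0714 in the exact permutation test. The other subunits had smaller differences. *Pik3r4*, the VPS15 pseudokinase, had -0.10 (95% interval -0.41 to 0.20). *Becn1*, the scaffold beclin 1, had 0.01 (-0.30 to 0.32), and *Atg14*, which directs the complex to autophagosomes, had 0.04 (-0.37 to 0.46).

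Membrane supply was followed with 4 genes, of which 3 had a positive difference and whose median was 0.04. *Atg2a* encodes a lipid transfer protein that feeds the growing membrane. It had log2 signals of 6.96, 7.92, 7.47, 7.35 and 6.97 in ctrl and 7.63, 7.60, 7.72, 7.60 and 7.06 in mTKO. The highest array was ctrl replicate 2, the mTKO values lay within the ctrl range, and mTKO replicate 5 stood below the other mTKO arrays. *Atg2a* differed by 0.19 (standard error 0.20, 95% interval -0.24 to 0.61, limma's adjusted p = 0.919, exact permutation p = 0.389). *Atg9a*, a lipid scramblase of vesicles that seed the membrane, had a difference of -0.02 (95% interval -0.32 to 0.29). For *Wipi1* and *Wipi2*, readers of the PI3-kinase lipid, the differences were 0.02 (-0.31 to 0.36) and 0.06 (-0.27 to 0.39).

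The conjugation machinery attaches ATG8 proteins to lipid, and its 5 members had a median difference of 0.01. *Atg5*, part of the ATG12-ATG5-ATG16L1 ligase, had log2 signals of 8.94, 9.46, 8.94, 8.99 and 9.32 in ctrl and 9.07, 8.84, 9.09, 8.66 and 9.26 in mTKO. Most arrays of both groups lay in a common range, with ctrl replicate 2 highest and mTKO replicate 4 lowest. The difference of *Atg5* was -0.15 (standard error 0.17, 95% interval -0.50 to 0.21, limma's adjusted p = 0.927, exact permutation p = 0.365). Its partners *Atg12* and *Atg16l1* had -0.14 (95% interval -0.52 to 0.25) and 0.01 (-0.43 to 0.46). *Atg3*, the E2-like enzyme, had 0.14 (-0.19 to 0.48). *Atg7*, the E1-like enzyme, had 0.06 (-0.41 to 0.53), the widest interval of the machinery, at a low signal that reached 6.30 in ctrl replicate 2 against 5.06 to 5.59 in the other ctrl arrays.

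ATG8 proteins sit on the autophagosome membrane and bind the receptors. Of 3 members, 2 had a positive difference, with a median of 0.23. *Gabarapl2*, of the GABARAP branch, had log2 signals of 9.54, 9.97, 9.03, 9.93 and 9.79 in ctrl and 9.96, 10.00, 9.85, 10.04 and 9.65 in mTKO. Ctrl replicate 3 was the lowest array, and the other ctrl values overlapped those of mTKO. Means were 9.65 ± 0.39 and 9.90 ± 0.16 (SD, n = 5 each), a difference of 0.25 (standard error 0.19, 95% interval -0.15 to 0.64, limma's adjusted p = 0.870, exact permutation p = 0.230). Without ctrl replicate 3 the difference of *Gabarapl2* was 0.09. *Map1lc3a*, of the LC3 branch, had 12.00, 12.33, 12.56, 12.21 and 11.78 in ctrl and 12.31, 13.05, 12.17, 11.91 and 12.61 in mTKO. The groups overlapped apart from mTKO replicates 2 and 5, which were the highest arrays. Its difference was 0.23 (standard error 0.21, 95% interval -0.22 to 0.69, limma's adjusted p = 0.893, exact permutation p = 0.365), and 0.07 without mTKO replicate 2. *Gabarap* had -0.01 (95% interval -0.31 to 0.28).

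**Figure D2:**
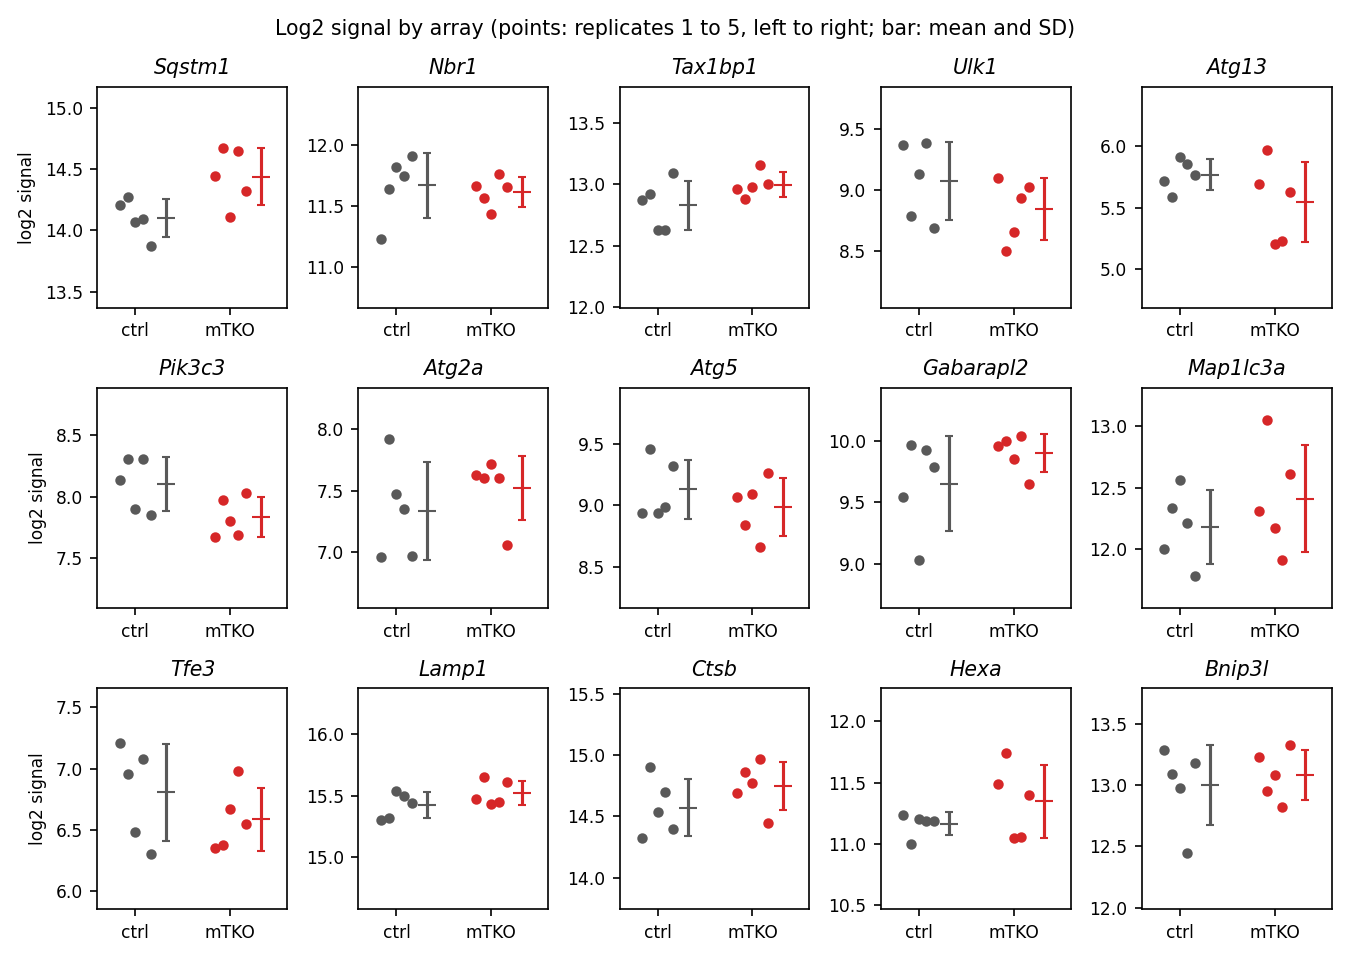
Log2 signal per array (points, replicates 1 to 5 from left to right) with mean and SD (bars) in ctrl (grey) and mTKO (red) for 15 members, n = 5 per group, every vertical axis spanning the same range of log2 units. In *Sqstm1*, 4 of 5 red points lie above all grey points, and in *Pik3c3* 3 of 5 lie below all grey points.

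TFEB and TFE3 are related transcription factors that mTORC1 holds in the cytosol and that, once in the nucleus, act on lysosome and autophagy promoters. Both transcripts had a negative difference, with a median of -0.17. *Tfe3* had log2 signals of 7.21, 6.96, 6.48, 7.08 and 6.30 in ctrl and 6.35, 6.38, 6.67, 6.98 and 6.55 in mTKO. The ctrl arrays spread over nearly the whole range, from replicate 1, the highest, to replicate 5, the lowest. Its means of 6.81 ± 0.40 and 6.59 ± 0.26 (SD, n = 5 each) differed by -0.22 (standard error 0.20, 95% interval -0.64 to 0.20, limma's adjusted p = 0.891, exact permutation p = 0.341). *Tfeb* had a difference of -0.12 (95% interval -0.52 to 0.28). These are transcript levels, and where the proteins were in the cell was not measured by the arrays.

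The promoters of the members were searched for the sequence through which TFEB and TFE3 bind DNA, the CLEAR motif. The RefSeq table (GRCm38.p6) held windows of 300 bases, 250 before and 50 after a gene's start, for 28 of 36 members. TCACGTGA, the palindrome at the heart of CLEAR, was searched on both strands and lay in the windows of *Atg3*, *Ctsd* and *Mcoln1*, and in 0.974% of all 32851 windows. Its core CACGTG, which every TCACGTGA contains and other E-box factors also bind, lay in those of 7 members (these 3 and *Atg5*, *Atg7*, *Atg14* and *Lamp1*) and in 7.15% of all windows. The window of each measured member with TCACGTGA is printed below, with that of *Sqstm1*, the member with the highest difference, in which none of the motifs searched was found. Capitals mark TCACGTGA, which starts 46 bases before the gene start in *Mcoln1* (chr8:3500269-3500568, plus strand) and 72 bases before it in *Atg3* (chr16:45158579-45158878, plus strand), and the *Sqstm1* window is chr11:50210771-50211070 on the minus strand. The *Mcoln1* and *Atg3* windows each hold CACGTG 2 times.
Mcoln1: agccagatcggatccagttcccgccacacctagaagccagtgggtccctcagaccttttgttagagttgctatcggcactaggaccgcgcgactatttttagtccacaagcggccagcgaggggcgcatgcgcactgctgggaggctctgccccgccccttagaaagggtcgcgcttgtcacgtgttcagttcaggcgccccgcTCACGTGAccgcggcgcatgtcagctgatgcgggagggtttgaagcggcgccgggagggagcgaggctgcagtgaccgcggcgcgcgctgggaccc
Atg3: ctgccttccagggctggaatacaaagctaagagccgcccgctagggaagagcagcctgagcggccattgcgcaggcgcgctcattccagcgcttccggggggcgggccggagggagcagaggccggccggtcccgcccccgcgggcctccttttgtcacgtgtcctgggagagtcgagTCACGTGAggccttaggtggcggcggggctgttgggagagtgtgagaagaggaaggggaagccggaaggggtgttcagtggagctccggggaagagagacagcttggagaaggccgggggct
Sqstm1: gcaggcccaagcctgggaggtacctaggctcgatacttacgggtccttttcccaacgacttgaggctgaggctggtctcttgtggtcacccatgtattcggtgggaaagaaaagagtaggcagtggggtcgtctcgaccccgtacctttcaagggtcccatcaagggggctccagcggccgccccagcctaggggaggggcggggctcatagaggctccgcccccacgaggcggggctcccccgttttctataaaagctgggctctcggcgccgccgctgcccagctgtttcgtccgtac

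Differences of members with and without the core motif covered a common range. The 6 measured members with CACGTG had differences from -0.15 to 0.14 with a median of 0.07, and the 19 measured members with a window and without CACGTG had differences from -0.23 to 0.34 with a median of 0.02. TGACNNNGC, the core of the antioxidant response element bound by NRF2, lay in the windows of 5 members (*Atg13*, *Ctsd*, *Hexa*, *Tax1bp1* and *Ulk2*) and in 12.4% of all windows. Differences of the 4 measured ones ran from -0.23 to 0.18. TGATGNAA, a form of the element bound by ATF4 with CHOP or C/EBP partners, lay in 0 of the member windows and in 3.97% of all windows. A match of letters is a description and no measure of binding, and these windows hold only the stretch next to the start.

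Lysosomal membrane proteins had positive differences in 3 of 3 members, with a median of 0.08. *Lamp1*, a main glycoprotein of the lysosomal membrane, had log2 signals of 15.30, 15.32, 15.54, 15.50 and 15.44 in ctrl and 15.47, 15.65, 15.43, 15.45 and 15.61 in mTKO. Only mTKO replicates 2 and 5 lay above the ctrl range. With means of 15.42 ± 0.11 and 15.52 ± 0.10 (SD, n = 5 each), its difference was 0.10 (standard error 0.14, 95% interval -0.19 to 0.39, limma's adjusted p = 0.940, exact permutation p = 0.159). *Lamp2*, needed for the fusion of autophagosomes with lysosomes in muscle and mutated in Danon disease, had 0.02 (95% interval -0.32 to 0.36). *Mcoln1*, which encodes the calcium channel TRPML1, had 0.08 (-0.29 to 0.44).

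The lysosomal hydrolases also had positive differences in 3 of 3 measured members, with a median of 0.18. *Ctsb*, the cysteine protease cathepsin B, had log2 signals of 14.32, 14.90, 14.54, 14.70 and 14.40 in ctrl and 14.69, 14.86, 14.77, 14.97 and 14.45 in mTKO. The groups overlapped over most of their range, and only mTKO replicate 4 lay above ctrl replicate 2. *Ctsb* differed by 0.18 (standard error 0.16, 95% interval -0.17 to 0.52, limma's adjusted p = 0.896, exact permutation p = 0.246). *Hexa*, the alpha subunit of beta-hexosaminidase, had 11.24, 11.00, 11.20, 11.19 and 11.19 in ctrl and 11.49, 11.74, 11.05, 11.06 and 11.40 in mTKO. Here 3 of 5 mTKO values exceeded the whole ctrl range, while mTKO replicates 3 and 4 lay below all ctrl arrays but replicate 2. The SD was 0.09 in ctrl and 0.30 in mTKO, and the difference of 0.18 had a standard error of 0.16 and a 95% interval of -0.16 to 0.53 (limma's adjusted p = 0.891, exact permutation p = 0.206). *Neu1*, the lysosomal sialidase, had 0.13 (95% interval -0.24 to 0.50).

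Mitophagy removes mitochondria and is read here through 2 receptors of their outer membrane. *Bnip3l*, which encodes NIX, had log2 signals of 13.29, 13.09, 12.98, 12.45 and 13.18 in ctrl and 13.23, 12.95, 13.08, 12.82 and 13.33 in mTKO. Ctrl replicate 4 was lowest, and 4 of 5 mTKO arrays lay within the ctrl range. Its difference was 0.08 (standard error 0.18, 95% interval -0.30 to 0.46, limma's adjusted p = 0.971, exact permutation p = 0.675). *Fundc1*, a receptor that answers to hypoxia, had 0.06 (95% interval -0.27 to 0.39).

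By array, the members did not move as a block. The mean of the 33 members, set to 0 in ctrl, lay between -0.07 and 0.11 in the ctrl arrays and between 0.01 and 0.06 in the mTKO arrays, so all mTKO arrays lay inside the ctrl range. Of the 10 arrays, mTKO replicate 2 was the highest for 8 members, among them *Sqstm1*, *Map1lc3a*, *Hexa* and *Lamp1*. Ctrl replicate 2 and mTKO replicate 4 were each the highest for 6 members. The groups of members overlapped between genotypes in each role: the hydrolases, for example, had means of 0.28, 0.35, 0.05, 0.16 and -0.02 in mTKO against -0.15 to 0.16 in ctrl. The ATG8 proteins had 0.17, 0.46, 0.07, -0.02 and 0.11 in mTKO against -0.14 to 0.18 in ctrl.

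Marker genes of other cells were read on the same arrays, because phagocytes are rich in lysosomes. Of 10 macrophage markers 9 were measured, 5 with a positive and 4 with a negative difference, and their mean log2 signal was 7.03 to 7.71 in ctrl and 6.97 to 7.84 in mTKO. Set to 0 in ctrl, it was highest in mTKO replicate 2 (0.47) and ctrl replicate 2 (0.34). In mTKO replicates 1 to 5 the macrophage mean was -0.01, 0.47, -0.24, 0.20 and -0.40. The hydrolases had 0.28, 0.35, 0.05, 0.16 and -0.02 in those arrays. In ctrl replicates 1 to 5 the macrophage mean was -0.11, 0.34, 0.07, 0.05 and -0.34. There the hydrolases had -0.06, 0.16, 0.10, -0.05 and -0.15. Of the macrophage markers *Adgre1* had a difference of -0.54 and *Mrc1* one of 0.44 (limma's adjusted p = 0.763 and 0.783). The 4 measured of 5 adipocyte markers had negative differences. Their mean signal ran from 5.02 to 7.22 in ctrl and from 4.34 to 6.72 in mTKO, again highest in ctrl replicate 2 and mTKO replicate 2. *Adipoq*, *Plin1* and *Cidec* were also highest in these 2 arrays. *Lep* was not: it was highest in ctrl replicate 4 (5.00) and had 4.11 in mTKO replicate 2, below all ctrl arrays (4.37 to 5.00). Schwann cell markers (3 of 5 measured) stood furthest apart in mTKO replicate 2, with a mean of 1.12 above the ctrl mean against -0.50 to 0.14 in the other mTKO and -0.24 to 0.29 in the ctrl arrays. The mean of the neutrophil markers (4 of 5 measured) was also highest there, at 0.52. It was -0.14 to 0.25 in the other mTKO and -0.25 to 0.28 in the ctrl arrays. Only *S100a8* was itself highest in mTKO replicate 2, at 5.13, while *S100a9*, *Retnlg* and *Csf3r* were highest in other arrays. All 4 were weakly read: by mean signal *S100a8* stood at percentile 9.74 and *S100a9*, the brightest, at 46.0. Without mTKO replicate 2, *Sqstm1* had a difference of 0.28, and it had the same difference without mTKO replicate 4 or without ctrl replicate 5. In mTKO replicate 4 the fibroblast markers had a mean of 0.92, against -0.50 to -0.08 in the other mTKO and -0.25 to 0.31 in the ctrl arrays. Of these, *Col1a1*, *Col1a2*, *Col3a1* and *Lum* had 14.06, 14.34, 14.19 and 12.55 there, against ctrl maxima of 12.38, 13.20, 13.10 and 12.49. *Dcn* and *Fbln1* went the other way, with 17.46 and 7.04 against ctrl means of 17.54 and 7.36. Satellite cell markers had a mean of 0.45 in that array, against -0.02 to 0.12 in the other mTKO and -0.08 to 0.11 in the ctrl arrays. *Pax7*, *Myf5* and *Chodl* lay above all ctrl arrays there, at 5.57, 6.65 and 9.30. *Cdh15* lay inside its ctrl range, and *Calcr* went the other way, with 4.66 against a ctrl mean of 4.92. By mean signal, *Pax7*, *Myf5* and *Calcr* stood below the median of all probe sets. Endothelium markers ran from -0.28 to 0.48 in mTKO and blood markers from -0.21 to 0.14. The part of these cells in the signals of the members was not tested.

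**Figure D3:**
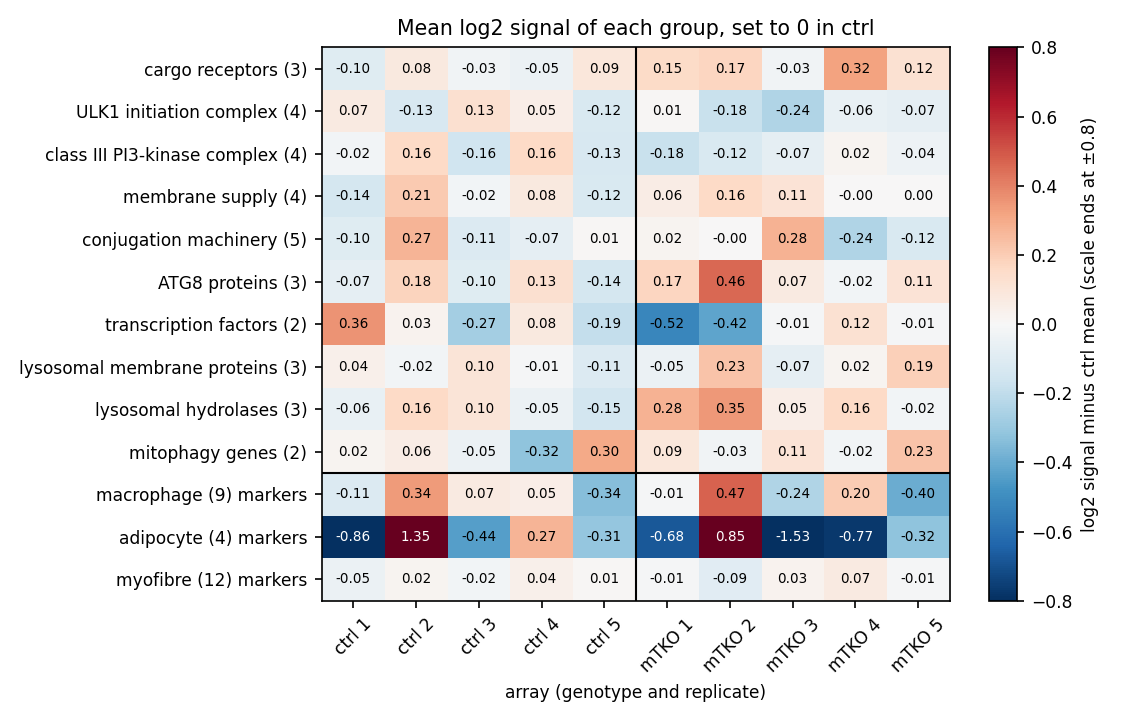
Mean log2 signal of each role group (number of measured members) and of 3 marker lists in the 10 arrays, minus the mean of the 5 ctrl arrays. Cell numbers give the value, and the colour scale ends at 0.8 in each direction, which the adipocyte markers exceed (1.35 in ctrl replicate 2). In no role group do the 5 mTKO columns lie wholly above or below the 5 ctrl columns.

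Further genes of the same pathways were read beside the members. Of 152 such genes 142 were measured, and 0 passed an adjusted p of 0.05 in limma. At an unadjusted p under 0.05, limma gave 3 higher and 2 lower genes, against 3.10% higher and 3.26% lower over all probe sets. Differences were positive in 84 and negative in 58 of them, where 49.9% of all probe sets were positive, and their median was 0.05. The groups did not overlap in 3 of these genes, 2 of them higher in mTKO and 1 lower, against 1.02% of all probe sets, and these 3 are named below for that reason.

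Other autophagy genes numbered 34 measured, 20 with a positive and 14 with a negative difference, and a median of 0.09. The lowest p was that of *Atg9b*, a relative of *Atg9a* read at low signal (3.79 to 4.59 over the 10 arrays), with a difference of -0.39 (standard error 0.16, limma's adjusted p = 0.768). *Atg101*, which steadies ATG13 in the ULK1 complex, had -0.33, and *Epg5*, a tether for fusion with the lysosome, had 0.28 (limma's adjusted p = 0.810 and 0.821). *Map1lc3b* and *Gabarapl1*, ATG8 genes known as FOXO targets in muscle, had differences of 0.09 and 0.14 with standard errors of 0.15 and 0.16 (limma's adjusted p = 0.962 and 0.928). Among 15 other mitophagy genes 7 differences were positive, the median was -0.03, and none was past an unadjusted p of 0.05 in limma. *Tomm7*, an import receptor subunit that holds PINK1 at the outer membrane, had 0.29, *Phb2*, an inner membrane receptor, had 0.25, and *Mul1*, a ubiquitin ligase of the outer membrane, had 0.21. *Bnip3*, the close relative of *Bnip3l*, had -0.11 with a standard error of 0.20 (limma's adjusted p = 0.967).

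Other lysosomal hydrolases numbered 39 measured, with 24 positive differences and a median of 0.05. *Ctsl*, a cathepsin and a known gene of muscle atrophy, stood above the rest of this list. It had log2 signals of 11.24, 11.58, 11.29, 11.21 and 11.58 in ctrl and 12.07, 12.92, 11.81, 11.84 and 11.98 in mTKO. The groups were apart, all mTKO values being the higher ones, and mTKO replicate 2 stood well above the others. The difference was 0.74 (standard error 0.20, 95% interval 0.31 to 1.18) or 1.67-fold, with an adjusted p of 0.623 from limma. Without mTKO replicate 2 it was 0.55. *Ctso*, another cathepsin, had -0.35 and *Man2b1*, the lysosomal alpha-mannosidase, had 0.25 (limma's adjusted p = 0.831 and 0.852).

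Among 21 other proteins of the lysosomal membrane and lipid export, 10 differences were positive and the median was -0.04. *Cd63*, a tetraspanin of late endosomes and exosomes, had log2 signals of 12.33, 12.23, 12.04, 12.27 and 12.29 in ctrl and 12.37, 12.67, 12.38, 12.39 and 12.44 in mTKO. The groups did not overlap, but mTKO replicate 1 and ctrl replicate 1 lay next to each other. Its difference was 0.22 (standard error 0.14, limma's adjusted p = 0.852). *Clcn7*, the chloride-proton exchanger, had 0.48 (standard error 0.21, limma's adjusted p = 0.783), *Laptm4b*, a membrane protein, had -0.40, and *Npc2*, a cholesterol carrier, had 0.26.

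The V-ATPase pumps protons into the lysosome, and 12 of its 16 measured subunits had positive differences, with a median of 0.09. *Atp6v0e2*, a subunit of the membrane part, had log2 signals of 9.77, 10.16, 9.44, 9.62 and 9.64 in ctrl and 8.79, 9.24, 9.37, 9.31 and 9.28 in mTKO. The groups were apart, with all mTKO values lower and mTKO replicate 1 lowest. The difference was -0.53 (standard error 0.17, limma's adjusted p = 0.711). *Atp6v1h*, a regulatory subunit of the catalytic part, had 7.95 to 8.67 in ctrl and 8.62, 9.03, 8.95, 8.97 and 8.51 in mTKO. Of its mTKO arrays, replicates 2, 3 and 4 lay above all ctrl arrays. Its difference was 0.52 (standard error 0.18, limma's adjusted p = 0.726, exact permutation p = 0.0397). *Atp6v1f* had 0.25.

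On the lysosomal surface, Rag GTPases recruit mTORC1 in response to amino acids. Of 17 genes of this platform 11 had a positive difference, the median was 0.08, and none was past an unadjusted p of 0.05 in limma. *Rraga*, *Rragc* and *Rragd*, which encode Rag GTPases, had differences of 0.19, 0.20 and -0.30 (limma's adjusted p = 0.871, 0.868 and 0.840).

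**Figure D4:**
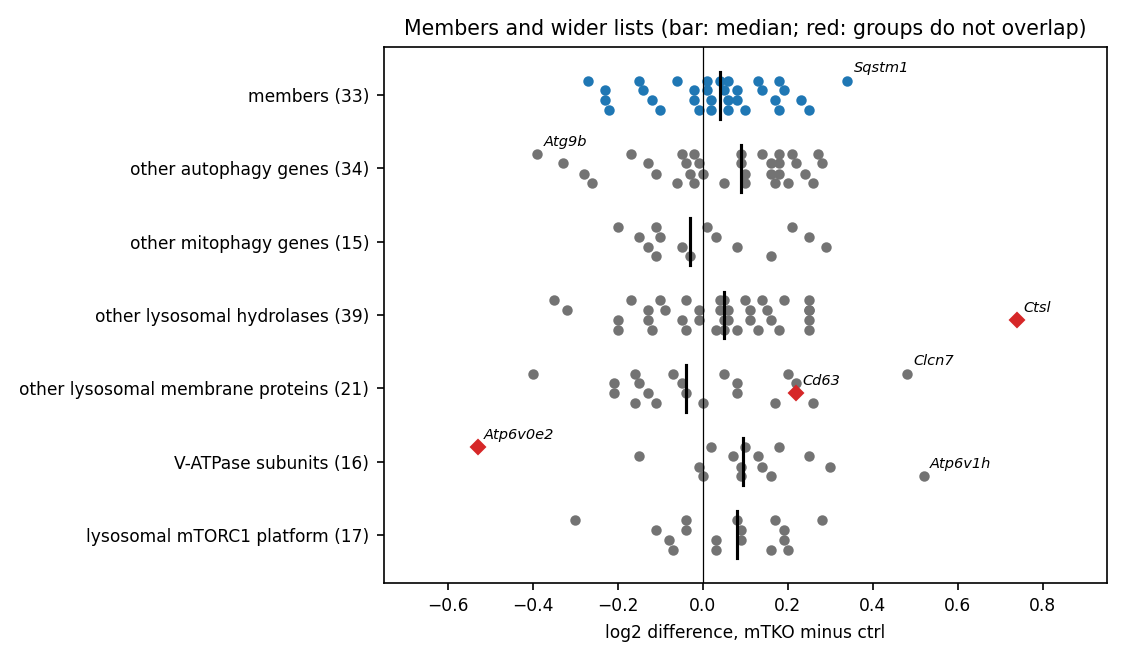
Log2 difference (mTKO minus ctrl) of each measured gene, for the 33 members (blue) and for 6 wider lists (grey), with black bars at the list medians. Red diamonds mark the genes whose groups do not overlap, *Ctsl* (0.74), *Cd63* (0.22) and *Atp6v0e2* (-0.53), and no member is among them.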

How the data were processed

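RNA of GTN muscle was hybridized to Clariom S mouse arrays, whose probes read exons shared by most transcripts of a gene. The authors deposited log2 signals summarized per probe set with SST-RMA, whose steps include background correction and between-array normalization. The labels name Affymetrix Expression Console 1.4. The genome build of the probe sets is not given in the sources used here. Of 22206 probe sets, 19572 had 1 symbol in the platform annotation, 0 had several and 2634 were unnamed here.

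These deposited values were fitted unaltered and unfiltered with limma 3.58.1 (R 4.3.3), using lmFit and default eBayes with genotype as the sole term. P-values were adjusted by the Benjamini-Hochberg method over every probe set, at a threshold of 0.05. For single genes, the difference of means was also tested by exact permutation, two-sided, over the 252 assignments of 5 and 5 arrays. Replicates are separate mice, and precision is limited by how few arrays there are. The steps were tested on simulated data. Promoters came from RefSeq (GRCm38.p6), and plots were made in matplotlib 3.10.9 under Python 3.11.

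Members and lists were chosen with earlier results of these data known, so they are no independent support. Every measured member is named, with values per array for the receptors, the 10 members with the smallest p and the member with the largest difference in each role group. From each wider list, the 3 genes with the smallest p and any whose groups did not overlap are named, with *Ctsl*, *Map1lc3b*, *Gabarapl1* and *Bnip3* in any case. Of 20 alternatives, 10 changed the test, normalization, filter, probe set rule or pairing and 10 left out 1 array each.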

Additional observations from a re-analysis of the deposited data

Results flagged for a closer look

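In 8 of 110 groups of 5 arrays tested (7.27%), 1 array stood apart from the other arrays of its genotype by Dixon's criterion. Chance alone meets this criterion in about 1 in 20 groups. The groups tested were those of the measured members and of the named genes of the wider lists. Most of the latter were picked by their p or lack of overlap in these data, so the share cannot be read against that rate. Of the 8 groups, 3 are in members. *Pik3r4* was lowest in ctrl replicate 2 at 7.76, with the other ctrl arrays at 7.94 to 8.01, and its difference was -0.15 without that array and -0.10 with it. *Atg2a* was lowest in mTKO replicate 5 at 7.06, with the others at 7.60 to 7.72, and its difference was 0.30 without that array and 0.19 with it. *Hexa* was lowest in ctrl replicate 2 at 11.00, against 11.19 to 11.24, and its difference was 0.14 without it and 0.18 with it.

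The other arrays set apart were in genes of the wider lists. *Ctsl* and *Cd63* were highest in mTKO replicate 2, at 12.92 (others 11.81 to 12.07) and 12.67 (others 12.37 to 12.44), with differences of 0.55 and 0.16 without that array. *Atp6v0e2* was lowest in mTKO replicate 1 at 8.79 (others 9.24 to 9.37), with a difference of -0.43 without it. In mTKO replicate 4, *Mul1* was lowest at 9.39 (others 9.72 to 9.78) and *Ctso* highest at 8.70 (others 8.42 to 8.49), with differences of 0.29 and -0.39 without it.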

How the results depend on the processing

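In all 20 alternatives, 0 members passed the adjusted threshold. The count of positive differences was 16 (without ctrl replicate 3) to 22, and the median over members -0.00 (without ctrl replicate 3) to 0.07. The medians of the role groups, which rest on 2 to 5 genes, ranged from -0.11 (without mTKO replicate 3) to 0.11 (without mTKO replicate 5) for the conjugation machinery, from -0.01 (without ctrl replicate 4) to 0.15 for the mitophagy genes, from 0.07 (without mTKO replicate 2) to 0.27 for the ATG8 proteins, from -0.24 to -0.08 (without ctrl or mTKO replicate 1) for the transcription factors and from -0.17 to -0.02 (probe sets above the median signal) for the ULK1 complex. They ran from 0.12 to 0.23 for the receptors, -0.11 to -0.03 for the PI3-kinase complex, 0.01 to 0.11 for membrane supply, 0.02 to 0.13 for the lysosomal membrane proteins and 0.12 to 0.20 for the hydrolases. The count of members at an unadjusted p under 0.05, which was 1 (*Sqstm1*), was 0 with array weights, 0 with the replicate block and 0 with the methods' t-test and its fold change above 2, and it was 0 to 1 when arrays were left out in turn. It was 0 without ctrl replicate 1, 3, 4 or 5 and without mTKO replicate 1, 2 or 4. The count of members whose groups did not overlap was 0 to 1 when arrays were left out, with *Sqstm1* the 1 member without mTKO replicate 3. Over the alternatives the difference of *Sqstm1* was 0.28 to 0.42 and its adjusted p from limma or the methods' t-test 0.621 to 0.908. Of 33 members, 17 kept their sign in every alternative with no difference that rounded to 0, 10 higher and 7 lower. *Tfeb* and *Mcoln1* are not among these 17, as their differences rounded to 0 at the nearest, but they changed sign in no alternative. Replicate numbers are shared by both genotypes, but arrays of the same number deviated together with correlations of only -0.036 to 0.164, so the numbers were not read as pairs. With the replicate block, the adjusted p of *Sqstm1* was 0.750 and its unadjusted p 0.0531. Over all probe sets, limma called 9 with trend and robust eBayes and 3 above the median signal, of which none is a member. It called 0 with quantile normalization, 0 in the upper 75 percent by signal and 0 in 7 of the 10 fits that left out 1 array.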
